A study of Drosophila melanogaster with 6 samples.

Results

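The genes described here encode proteins of the cytosolic ribosome of Drosophila melanogaster, or proteins that resemble them. They were taken by symbol from the deposited comparison table, as every gene whose symbol starts with RpL or RpS and a digit, or with RpLP, together with sta, while mRpL and mRpS genes and the kinases related to S6 kinase were left out. The rule found 92 of the 17737 genes in the deposited counts, and no gene with the symbol RpS12 was among them. RNA was sequenced from whole adult males of the w1118 strain, virgins per the study's methods, that had spent 20 days at 25°C on a chemically defined holidic food (HF) or on HF with 50 g/L of added glucose (GSF), and all flies had developed on cornmeal food. Each diet had 3 libraries, called replicates 1 to 3, and each library came from 5 whole flies, so that all tissues were measured together. The labels do not say whether the replicates came from separate cultures, and p-values measure the spread between these libraries.

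Ribosomes translate messenger RNA into protein, and each is built from a large and a small subunit of ribosomal RNA and proteins. The proteins are made in near equal amounts and assembled in the nucleolus, and their mRNAs are among the most abundant in most cells. In animals their translation follows nutrient signals through the Tor kinase, and in Drosophila the loss of 1 copy of many of these genes gives the slow-growing Minute flies. Most ribosomal proteins come from a single gene, but a few have a second copy that is used mainly in the germ line or is little used. Here 79 genes were treated as core, namely 44 of the large subunit, 32 of the small subunit and the 3 of the acidic stalk, which recruits elongation factors. A further 10 were second copies of a core gene, and 3 encode proteins that resemble a ribosomal protein and, in yeast, take part in assembling the large subunit.

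Library totals lay between 51826530 and 66493536 counts, and 13373 genes were tested, including all 92 ribosomal protein genes. A tested gene had to reach 1 CPM in 3 or more libraries, where CPM is the count scaled to a library total of 1e+06. The values below are CPM scaled by edgeR's TMM factors. Reads on annotated ribosomal RNA genes made up 15.8% to 16.4% of an HF library and 18.3% to 21.9% of a GSF library. Of the marker genes listed for tissues of the fly, the midgut genes Jon65Aiv, Mal-A1 and LManII, the fat body gene FASN1 and the muscle gene fln were lower on GSF (log2 fold changes of -0.50, -0.67, -0.40, -0.57 and -0.70). All 6 midgut genes had a negative fold change, and their summed level was 4461 to 5665 CPM on HF and 2748 to 3822 CPM on GSF. Of the 5 fat body genes 4 were tested, with negative fold changes in FASN1 and Lsp2 (-3.07) and positive ones in apolpp (0.30) and fit (0.10). Lsp2 had means of 398 ± 190 CPM on HF and 47.4 ± 54.1 CPM on GSF (SD, n = 3). The summed level of the 5 was 3874 to 4305 CPM on HF and 2911 to 3580 CPM on GSF. Among 18 testis genes, 0 were called by edgeR's quasi-likelihood test, 0 at an unadjusted p under 0.05 and 0 by DESeq2. With replicate numbers as blocks in the edgeR model, 1 of them, ocn, was called higher (edgeR adjusted p = 0.0421). The sum of the testis genes was 1395 to 1961 CPM on HF and 1576 to 1859 CPM on GSF. Of the 8 muscle genes 4 had a negative and 4 a positive fold change, with 1 lower and 2 higher at an unadjusted p under 0.05. The 2 higher ones were TpnC41C (0.21) and flw (0.24), and flw was called higher with the replicate block (edgeR adjusted p = 0.0307). The gene fln had low means, of 11.7 CPM on HF and 7.21 CPM on GSF. The sum of the 8 muscle genes was 2631 to 2983 CPM on HF and 2775 to 2851 CPM on GSF. Of 7 eye genes edgeR called 0, with 1 at an unadjusted p under 0.05 and 0 by DESeq2. With the replicate block 1 eye gene, norpA, was called higher (edgeR adjusted p = 0.0476). Of 5 accessory gland genes edgeR called 0, with 2 at an unadjusted p under 0.05, and 2 were called lower by DESeq2 and with the block. The midgut gene alphaTry (-0.61) and the fat body gene Lsp2 were also called lower by DESeq2 and with the block. The female genes Yp1, Yp2, Vm26Ab and Cp36 had means under 1 CPM on both diets. Yp3, the other gene of that list, had means of 9.19 ± 0.794 CPM on HF and 7.03 ± 0.268 CPM on GSF (SD, n = 3), without overlap, and its log2 fold change of -0.39 ± 0.094 (SE, edgeR adjusted p = 0.0615) was called lower with the replicate block and by DESeq2. The part of these tissue genes in the values below was not tested, and fewer cells of a type cannot be told apart from less RNA per cell.

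Ribosomal protein genes took a smaller mean share of the reads on GSF, although the diets overlapped in shares of the raw totals. Their summed counts were 6.04%, 5.73% and 5.16% of all counts in HF replicates 1, 2 and 3, and 5.20%, 5.13% and 4.70% in GSF replicates 1, 2 and 3. The means were 5.64% ± 0.449 (SD, n = 3) on HF and 5.01% ± 0.268 (SD, n = 3) on GSF, so that the share was 11.3% lower on GSF in relative terms. HF replicate 3 lay just below GSF replicate 1, and the other HF libraries lay above every GSF library. Within each replicate number the share was lower on GSF. With ribosomal RNA genes left out of the totals, the means were 6.74% ± 0.514 and 6.23% ± 0.187 (SD, n = 3 each), and HF replicate 3 then lay below GSF replicates 1 and 2, while within each replicate number GSF was again lower. With totals scaled by the TMM factors, the means were 5.67% ± 0.444 on HF and 4.99% ± 0.172 on GSF (SD, n = 3 each), and the diets did not overlap, with 5.21% in the lowest HF library and 5.11% in the highest GSF library.

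The core genes varied together from library to library. Their median level on the log2 CPM scale was 9.48, 9.41 and 9.29 in HF replicates 1, 2 and 3, and 9.24, 9.25 and 9.18 in GSF replicates 1, 2 and 3. The gap between the highest and the lowest HF library was thus larger than the gap between HF replicate 3 and the nearest GSF library. Of the 79 core genes, 75 had their highest level in HF replicate 1, and 72 had their lowest in GSF replicate 3. Ribosomal RNA counts were also highest in GSF replicate 3, at 21.9% of its total, and the part of ribosomal RNA in these levels was not tested beyond the values without those genes.

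**Figure D1:**
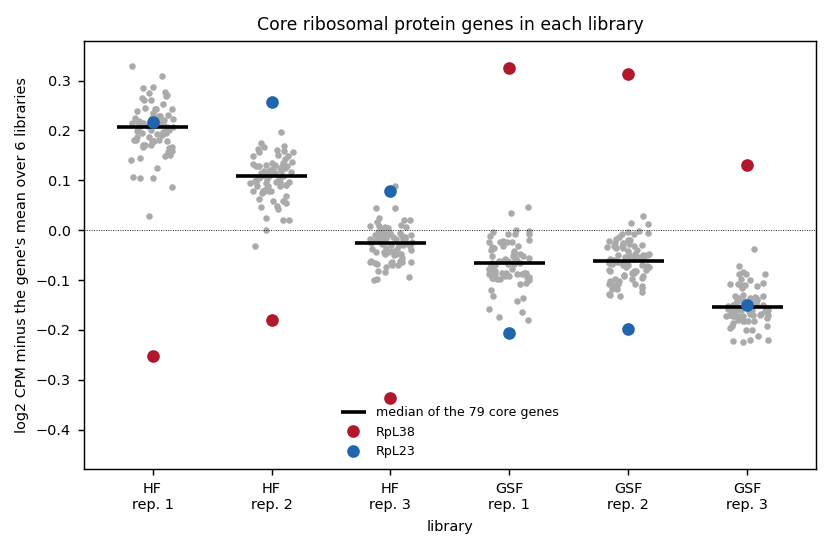
Level of each core ribosomal protein gene in each library, as log2 CPM minus the gene's own mean over the 6 libraries (vertical axis), with 1 grey point per gene, spread sideways only to show them apart. The black bars are the medians of the 79 genes, which run from 0.21 in HF replicate 1 to -0.15 in GSF replicate 3, and RpL38 (red) lies below 0 in every HF library and above 0 in every GSF library.

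Between the diets, most ribosomal protein genes had a small negative fold change, and 2 passed the test. The fitted log2 fold change of GSF over HF was negative for 88 of the 92 genes, against 47.7% of all tested genes, and its median was -0.19 against 0.008 over all tested genes. A gene was called when edgeR's quasi-likelihood test gave p under 0.01 and, after Benjamini-Hochberg adjustment over all tested genes, an adjusted p under 0.05. By this rule 1 gene, RpL38, was higher on GSF and 1 gene, RpL23, was lower. Among all tested genes 2% were called higher and 3.14% lower, so the count of called ribosomal protein genes was not above the background in either direction. At an unadjusted p under 0.05, 43 of the 92 were lower and 1 was higher, where 9.9% and 9.77% of all tested genes passed. All GSF libraries lay below all HF libraries in 49 of the 92 genes, and above them in 1, against 12.9% and 12.3% of all tested genes. The ribosomal protein genes share their libraries, and varied together in them, so these counts are not independent observations.

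The count of calls depended on the model. When replicate numbers entered the model as blocks, 11 of the 92 genes were lower and 1 was higher, where 6.52% of all tested genes were called lower and 6.8% higher. The lower genes in this fit included RpL11, RpL18, RpL23, RpL41, RpS10b and RpS30, and RpL38 was the higher one. DESeq2 called 17 lower, which included the 11 of the block fit, and RpL38 higher, where it called 6.16% of all tested genes lower and 4.52% higher. The median log2 fold change of the 92 genes was -0.13 without HF replicate 1 and -0.24 without HF replicate 3, the ends of its range when each library was left out in turn. Among 585 other tested genes with a mean of at least 100 CPM and under 2000 bp of exon, a class chosen because core genes are abundant and mostly short, the median was -0.12, with 112 genes called lower and 13 called higher. Of these 585 genes, 427 had a negative fold change, and at an unadjusted p under 0.05, 221 were lower and 38 higher. All GSF libraries lay below all HF libraries in 235 of them and above in 40. Lower values on GSF were thus also common among other abundant, short genes.

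**Figure D2:**
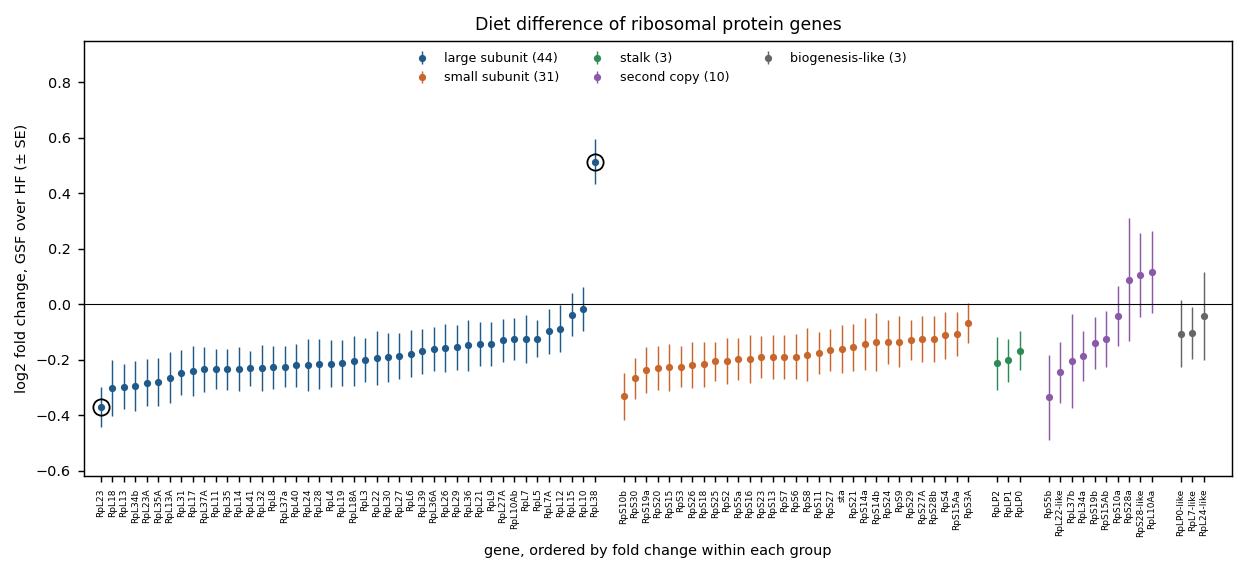
Log2 fold change of GSF over HF for the ribosomal protein genes shown (points) with its standard error (bars), from edgeR's quasi-likelihood fit, ordered within each group along the horizontal axis. Circles mark RpL38 and RpL23, the only genes called in this fit, and RpL38 is the only core gene above 0.

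RpL38, a small protein of the large subunit, was the exception among the core genes. In mice, loss of 1 copy of the gene for this protein alters the pattern of the axial skeleton. The fly gene (FBgn0040007, chromosome 2R, 4515388 to 4516458 on the minus strand of BDGP6.54) has 2 annotated transcripts and shares no exon with another gene. Its level was 165, 173 and 156 CPM in the HF libraries and 246, 244 and 215 CPM in the GSF libraries, so that each GSF library exceeded each HF library. The means were 165 ± 8.92 and 235 ± 17.3 CPM (SD, n = 3), a 1.43-fold difference and a log2 fold change of 0.51 ± 0.081 (SE, edgeR adjusted p = 0.0148), with adjusted p = 0.00516 with the replicate block. Its log2 fold change stayed between 0.48 and 0.58 when each library was left out in turn. It kept the call in 3 of these 6 fits and lost it without HF replicate 1 (adjusted p = 0.0658), without GSF replicate 1 (adjusted p = 0.0643) and without GSF replicate 2 (adjusted p = 0.0570). The other 78 core genes had log2 fold changes between -0.37 and -0.018, with an SD of 0.063 across genes, and RpL38 lay 0.71 above the core median. The gene lies near the centromere end of its arm, where 21 of 40 other tested genes were called higher on GSF, a count made after the values were seen. Scaling without ribosomal RNA genes gave 0.51, and library size alone gave 0.53.

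RpL23 had the lowest fold change of all 92 genes. Its protein belongs to the face of the large subunit that meets the small subunit. The gene (FBgn0010078, chromosome 2R, 22854383 to 22855694 on the plus strand) shares 7 bp of exon with inaD on the other strand, and whether the counting used strand is not stated. Its level was 704, 724 and 639 CPM in the HF libraries and 525, 528 and 546 CPM in the GSF libraries, with no overlap between the diets. The means were 689 ± 44.2 and 533 ± 11.3 CPM (SD, n = 3), with a log2 fold change of -0.37 ± 0.073 (SE, edgeR adjusted p = 0.0305), and adjusted p = 0.0218 with the block. Among the fits with 1 library left out, RpL23 was called only without HF replicate 3, and in the others its adjusted p lay between 0.102 and 0.118, with log2 fold changes between -0.38 and -0.32. RpL23 lay 0.18 below the core median on the log2 scale.

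**Figure D3:**
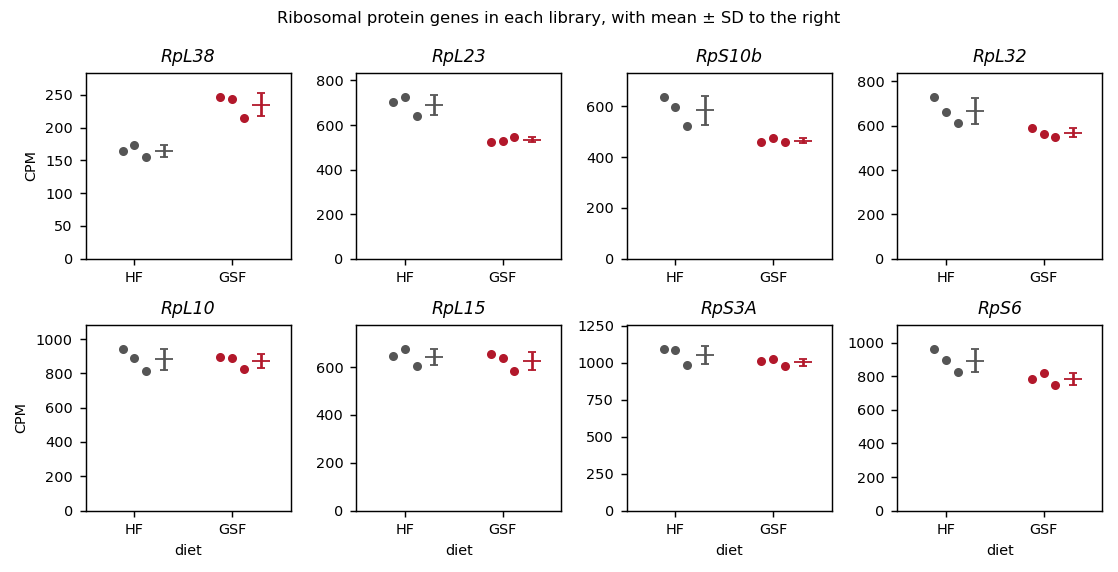
Level in CPM of 8 ribosomal protein genes in each library (points), with the mean and SD of each diet (bars to the right of the points) and axes that start at 0. RpL38 is the gene with higher GSF libraries, RpL23, RpS10b, RpL32 and RpS6 have lower ones, and the diets overlap for RpL10, RpL15 and RpS3A.

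Of the 44 large subunit genes, 43 had a negative fold change, with a median of -0.21 on the log2 scale, and in 26 the GSF libraries were all below the HF libraries. Among all tested genes 47.7% had a negative fold change, and in 12.9% the GSF libraries were all below the HF libraries. RpL5 and RpL11 form a particle with the 5S ribosomal RNA before they join the subunit, and in mammals this particle binds a regulator of p53. RpL5 had 1465, 1417 and 1380.5 CPM in the HF libraries and 1309, 1342 and 1259.9 CPM in the GSF libraries, without overlap, and a log2 fold change of -0.12 ± 0.066 (SE, edgeR adjusted p = 0.362). RpL11 had 752, 732 and 668 CPM in the HF libraries and 616, 619.5 and 591 CPM in the GSF libraries, and its log2 fold change of -0.24 ± 0.072 (SE, edgeR adjusted p = 0.118) was called in the block fit (adjusted p = 0.0492).

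RpL3, which lies near the site of peptide bond formation, had 1473, 1371 and 1242 CPM in the HF libraries and 1195, 1183 and 1177 CPM in the GSF libraries and a log2 fold change of -0.20 ± 0.079 (SE, edgeR adjusted p = 0.217). RpL40 is made as a fusion with ubiquitin, and had 556, 539.6 and 481 CPM in the HF libraries and 464, 454 and 436 CPM in the GSF libraries, again without overlap, with a log2 fold change of -0.22 ± 0.078 (SE, edgeR adjusted p = 0.168). RpL41, the shortest of all ribosomal proteins, had 707, 686 and 676 CPM in the HF libraries and 595, 587 and 580.1 CPM in the GSF libraries. The diets did not overlap, and its log2 fold change of -0.23 ± 0.062 (SE, edgeR adjusted p = 0.0803) was called with the block (adjusted p = 0.0439) and by DESeq2.

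RpL32, also known as rp49, is widely used as a reference gene in quantitative PCR of flies, and the study used it so. Its level was 728, 663 and 611 CPM in the HF libraries and 591, 565 and 551 CPM in the GSF libraries, and each GSF library was below each HF library. The log2 fold change was -0.23 ± 0.083 (SE, edgeR adjusted p = 0.172), with adjusted p = 0.0594 with the block, so it did not pass the threshold in either fit.

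All 32 small subunit genes found by the rule, which include RpS14a and RpS14b but no RpS12, had a negative fold change. Their median was -0.19, with a range from -0.33 to -0.068 on the log2 scale, and in 20 the diets did not overlap. The quasi-likelihood test called 0 of them, 18 had a p under 0.05 before adjustment, DESeq2 called 5 lower and the block fit called 3 lower. Among all tested genes 3.14%, 9.9%, 6.16% and 6.52% were lower by these measures, in this order. All GSF libraries lay below all HF libraries in 12.9% of all tested genes. RpS10b had the lowest fold change among the small subunit genes, with 635, 597 and 524 CPM in the HF libraries and 459.7, 475 and 459.7 CPM in the GSF libraries, and a log2 fold change of -0.33 ± 0.085 (SE, edgeR adjusted p = 0.0708). It was called with the block (adjusted p = 0.0339) and, in the fit without HF replicate 3, without it. RpS30, made as a fusion with a ubiquitin-like protein, had 698, 681 and 629 CPM in the HF libraries and 580.5, 562 and 527 CPM in the GSF libraries and a log2 fold change of -0.27 ± 0.074 (SE, edgeR adjusted p = 0.0911), with adjusted p = 0.0294 in the block fit.

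RpS27A, a second fusion with ubiquitin, had 862, 805 and 726 CPM in the HF libraries and 752, 744 and 696 CPM in the GSF libraries, with overlapping diets and a log2 fold change of -0.13 ± 0.083 (SE, edgeR adjusted p = 0.485). RpS6, the substrate of S6 kinase downstream of Tor, had 962, 897 and 823 CPM in the HF libraries and 784, 817 and 751 CPM in the GSF libraries, without overlap, and a log2 fold change of -0.19 ± 0.080 (SE, edgeR adjusted p = 0.247). The gene sta, which encodes the protein called RPSA in mammals, had 1194, 1096 and 982 CPM in the HF libraries and 981, 1010.2 and 933 CPM in the GSF libraries. HF replicate 3 of sta lay among the GSF libraries, and its log2 fold change was -0.16 ± 0.088 (SE, edgeR adjusted p = 0.374).

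The 3 stalk genes had fold changes close to the core median, and 0 were called by edgeR, DESeq2 or the block fit, with 2 at an unadjusted p under 0.05. RpLP0, the base of the stalk, had 960.3, 958 and 885 CPM in the HF libraries and 819, 872 and 805 CPM in the GSF libraries. RpLP1 had 994, 941 and 865 CPM in the HF libraries and 832, 822 and 777 CPM in the GSF libraries. RpLP2 had 894, 770.4 and 736 CPM in the HF libraries and 709, 728 and 636 CPM in the GSF libraries. Their log2 fold changes were -0.17, -0.20 and -0.21 in this order, and each GSF library lay below each HF library in all 3 genes.

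Since the core genes varied together, each was also set against the median core gene of the same library. Relative to this median, GSF libraries were all higher than HF libraries for 7 of the 79 genes, all lower for 23, and overlapped for 49. On the same scale 35.3% of all tested genes were higher without overlap and 3.71% were lower, and the core genes themselves set this median. RpL38 had the largest difference, 0.68 on the log2 scale, and lay -2.11 to -1.97 log2 units from the median on HF and -1.43 to -1.30 on GSF. The next were RpL10, RpL15 and RpS3A, named after their values were seen, with differences of 0.15, 0.13 and 0.10. RpL10, which joins the large subunit late in its assembly, had 941, 887 and 817 CPM in the HF libraries and 896, 892 and 823 CPM in the GSF libraries, and its fitted log2 fold change was -0.018 ± 0.079 (SE, edgeR adjusted p = 0.952). RpL15 had 647, 675 and 606 CPM in the HF libraries and 654, 639 and 584 CPM in the GSF libraries. RpS3A, a small subunit gene, had 1092, 1086 and 983 CPM in the HF libraries and 1012, 1024 and 979 CPM in the GSF libraries. In these 3 genes the diets overlapped in CPM while the core median was lower on GSF. The lowest differences were those of RpL23 (-0.20) and RpS10b (-0.16).

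Per kb of annotated exon, core genes lay close together, apart from a few. Their mean over the 6 libraries ran from 197 to 1995 CPM per kb, with a median of 703 and quartiles of 564 and 834, and 75 of 79 were within 2-fold of the median. RpL41, with 320 bp of exon and 75 bp of coding sequence, was the highest, followed by RpS18 at 1355 and RpL39 at 1302 CPM per kb. RpL38 was the lowest core gene on each diet, below RpS21 at 289 and RpS10b at 337 CPM per kb. These lengths are unions of all annotated exons, so a gene with long alternative or untranslated ends, such as RpL5 with 3835 bp of exon for 897 bp of coding sequence or RpL38 with 1013 bp for 210 bp, may be placed too low. Per kb of coding sequence, an order made after the first was seen, RpL38 was at 952 CPM and the ninth from the lowest over all libraries, at place 2 from the lowest on HF and place 30 on GSF. RpL22 was then the lowest, at 533 CPM per coding kb, and RpL41 stayed the highest.

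**Figure D4:**
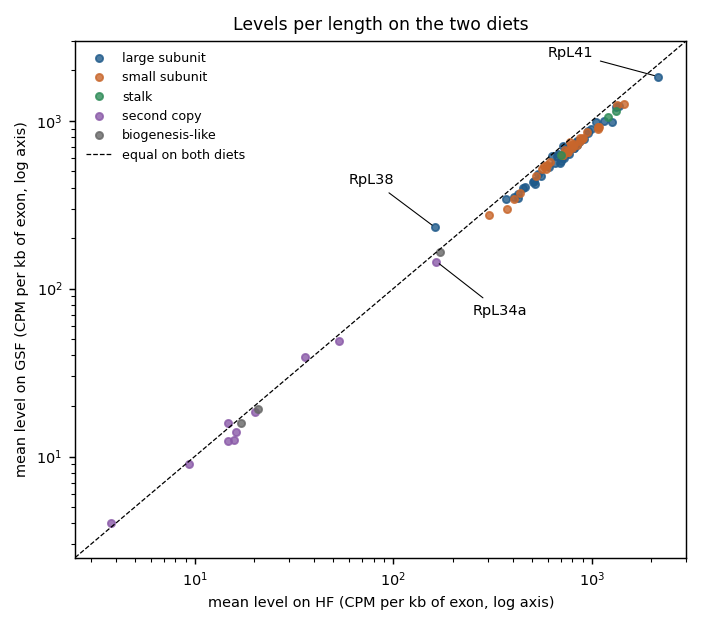
Mean level of each ribosomal protein gene on HF (horizontal) and GSF (vertical), in CPM per kb of exon on log axes, with 1 point per gene and the dashed line where the diets are equal. Core genes run from RpL38, at 163 on HF and 232 on GSF, to RpL41, at 2155 on HF and 1836 on GSF. RpL38 is the core gene above the line. Second copies lie below the core genes, except that RpL34a, at 165 on HF, lies just above RpL38 on that axis.

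The 10 second copies were far less abundant than the core genes, with summed levels of 229 to 242 CPM on HF and 208 to 224 CPM on GSF. None was called by the quasi-likelihood test, the block fit or DESeq2, and 0 had an unadjusted p under 0.05. Their log2 fold changes had a median of -0.13, with 7 negative and 3 positive values, and the standard errors were larger, with a median of 0.13 against 0.081 for core genes. RpL34a was the most abundant, with 112, 103 and 92.4 CPM in the HF libraries and 93.7, 93.2 and 83.4 CPM in the GSF libraries, and made up 27.9% ± 0.418 of the pair with RpL34b per kb on HF and 29.4% ± 1.12 on GSF (SD, n = 3). RpL10Aa had the highest fold change of the group, with 30.0, 22.7 and 32.4 CPM in the HF libraries and 33.4, 26.3 and 32.5 CPM in the GSF libraries and a log2 fold change of 0.12 ± 0.15 (SE, edgeR adjusted p = 0.773). Its share of the pair with RpL10Ab was 5.14% ± 1.07 on HF and 5.99% ± 0.652 on GSF (SD, n = 3).

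Copies known from the germ line were at low levels. RpS5b had 11.7, 18.5 and 14.7 CPM in the HF libraries and 11.3, 12.1 and 12.3 CPM in the GSF libraries, with overlapping diets and a log2 fold change of -0.34 ± 0.15 (SE, edgeR adjusted p = 0.285). RpL22-like, a partner of RpL22 in the testis, had 15.9, 20.5 and 18.2 CPM in the HF libraries and 14.9, 14.5 and 16.6 CPM in the GSF libraries and a log2 fold change of -0.25 ± 0.11 (SE, edgeR adjusted p = 0.269). RpS19b had 13.1, 14.0 and 13.4 CPM in the HF libraries and 12.02, 11.1 and 13.6 CPM in the GSF libraries, with a log2 fold change of -0.14 ± 0.093 (SE, edgeR adjusted p = 0.484). Per kb, each made up between 2.37% and 5.09% of its pair on either diet. RpS15Ab was 8.51% ± 0.735 of its pair with RpS15Aa on HF and 8.38% ± 0.523 on GSF (SD, n = 3), with a log2 fold change of -0.13.

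The lowest levels were those of RpS28a, at 1.26, 0.865 and 1.32 CPM in the HF libraries and 1.44, 1.02 and 1.22 CPM in the GSF libraries, which was under 1 CPM in HF replicate 2. RpS28-like had 5.91, 4.15 and 6.06 CPM in the HF libraries and 6.13, 5.44 and 5.78 CPM in the GSF libraries, and its log2 fold change was 0.11 ± 0.15 (SE, edgeR adjusted p = 0.808). RpL37b had 5.58, 8.56 and 6.24 CPM in the HF libraries and 6.30, 5.21 and 6.20 CPM in the GSF libraries, with a log2 fold change of -0.20. The diets overlapped in all 10 second copies, and RpS10a, with 5.49, 6.09 and 5.33 CPM in the HF libraries and 5.94, 4.97 and 5.49 CPM in the GSF libraries, had a log2 fold change of -0.044. In each of these pairs the main copy held most of the signal, and the fold changes of the main copies RpL10Ab, RpL22, RpL34b, RpL37a, RpS5a, RpS15Aa, RpS19a and RpS28b were -0.13, -0.19, -0.30, -0.23, -0.20, -0.11, -0.24 and -0.13 on the log2 scale.

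RpS14a and RpS14b lie next to each other on the X chromosome and were counted as core, since both are highly expressed. RpS14a had 856, 725 and 709.8 CPM in the HF libraries and 723, 707 and 644 CPM in the GSF libraries. RpS14b had 647, 525 and 522 CPM in the HF libraries and 534, 534 and 473 CPM in the GSF libraries, and in both genes the diets overlapped. RpS14b held 52.04% ± 0.543 of the pair per kb on HF and 52.2% ± 0.371 on GSF (SD, n = 3), and the difference was smaller than the SD. The copies are alike in sequence, and the counting may have split or dropped their shared reads.

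The 3 genes for assembly factors that resemble ribosomal proteins did not follow the core genes in all libraries, and 0 were called by edgeR, with or without the block, or by DESeq2, with 0 at an unadjusted p under 0.05. RpL24-like had 167, 127 and 103 CPM in the HF libraries and 126, 133 and 127 CPM in the GSF libraries, with the HF libraries spread on either side of the GSF libraries and a log2 fold change of -0.042 ± 0.16 (SE, edgeR adjusted p = 0.940). RpLP0-like had 22.6, 19.8 and 16.7 CPM in the HF libraries and 17.5, 20.0 and 17.2 CPM in the GSF libraries, and its log2 fold change was -0.11 ± 0.12 (SE, edgeR adjusted p = 0.739). RpL7-like had 32.8, 31.4 and 27.4 CPM in the HF libraries and 28.2, 30.6 and 26.4 CPM in the GSF libraries, and 1771 of its 1793 exonic bp overlap CG34164 on the same strand, so its counts are uncertain. Among their core counterparts, RpL7 had 939, 892 and 787 CPM in the HF libraries and 816, 832 and 752 CPM in the GSF libraries, with a log2 fold change of -0.13. RpL24 had 595, 532 and 482 CPM in the HF libraries and 463, 484 and 434 CPM in the GSF libraries, with a log2 fold change of -0.22, and HF replicate 3 lay within the GSF range in both.

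Of 73 mitochondrial ribosomal protein genes, 57 had a negative fold change, with a median of -0.053, and 1 was called higher. None was called lower by edgeR's quasi-likelihood test, where 2 had an unadjusted p under 0.05 and DESeq2 called 1. The higher gene, mRpS5, named after its value was seen, had 161, 182 and 165 CPM in the HF libraries and 306, 304 and 290.4 CPM in the GSF libraries, without overlap, and a log2 fold change of 0.83 ± 0.073 (SE, edgeR adjusted p = 0.00363). Among 8 genes for elongation factors and the small subunit partner Rack1, 7 had a negative fold change, with a median of -0.12, and 0 were called, with 2 lower at an unadjusted p under 0.05 and 2 called lower by DESeq2. The elongation factor gene eEF1alpha1 had 5463, 5595 and 5467 CPM in the HF libraries and 4323, 4636 and 4736 CPM in the GSF libraries, with a log2 fold change of -0.27 ± 0.069 (SE, edgeR adjusted p = 0.0708), and was called with the block (adjusted p = 0.0447). The log2 fold changes were -0.24 for eEF1gamma, -0.13 for eEF1beta, -0.080 for eEF1delta, -0.12 for eEF2, -0.077 for eEF5, 0.029 for eEF1alpha2 and -0.17 for Rack1, with adjusted p values of 0.113 or above.

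Of 18 genes that control the transcription or translation of ribosomal proteins, including Tor, S6k, Myc, Trf2 and larp, 10 had a positive and 8 a negative fold change, with a median of 0.030, 0 called, 1 at an unadjusted p under 0.05 and 0 called by DESeq2. With the block, 3 were called higher, namely Myc, an activator of ribosome synthesis (adjusted p = 0.0484), Trf2, a promoter factor of these genes (adjusted p = 0.0350), and REPTOR, a transcription factor held back by Tor (adjusted p = 0.0254). Myc had 33.5, 41.4 and 34.2 CPM in the HF libraries and 36.3, 51.6 and 46.0 CPM in the GSF libraries, and its log2 fold change without the block was 0.30 ± 0.14 (SE, edgeR adjusted p = 0.308). Tor had a log2 fold change of 0.048, S6k of 0 and Thor, the fly 4E-BP, of -0.041. Of 4 genes that respond to ribosome stress, 0 were called by edgeR, by DESeq2 or at an unadjusted p under 0.05, and Xrp1, which is induced in Minute flies, had a log2 fold change of -0.079 ± 0.10 (SE, edgeR adjusted p = 0.760).

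In the annotation, 28 core genes carry a small nucleolar RNA within their bounds, and these had a median log2 fold change of -0.19 against -0.21 for the 51 without. Another grouping gave 28 core genes whose exons overlap those of a neighbour and 51 with no overlap, with medians of -0.19 and -0.20. Reads in an overlap may have been dropped or given to either gene, as in RpS9, which shares 512 bp with an antisense RNA, and RpL23A, which shares 421 bp with the host gene Uhg7. RpL38 has neither feature.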

How the data were processed

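The authors trimmed paired reads with Trimmomatic, aligned them to bdgp6 with HISAT2 (2.1.0), handled the alignments with SAMtools (1.8) and used Rsubread for gene counts. Use of strand is not given in the sources used here. The deposited values are these raw counts per FlyBase gene in each of 6 libraries. The deposited comparison table was used only for its gene symbols, and the authors' fold changes and p-values in it were not used.

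Diets were compared in R 4.3.3 by the two-sided quasi-likelihood test of edgeR 4.0.16 with TMM factors. The filter of 1 CPM in 3 libraries kept 13373 genes, with Benjamini-Hochberg adjustment over all of them. A gene was called at p under 0.01 and adjusted p under 0.05. The standard error of a log2 fold change is its size over the square root of F. DESeq2 1.42.0 was an alternative, as were other scalings, filters, the replicate block, a correction for exonic length and the omission of single libraries. The tests were tried on simulated counts, drawn for each gene separately and with no effect of replicate number. That trial thus did not address genes that vary together from library to library. An exact permutation test had been planned for the share of counts, but is not given, since the share is a sum over the chosen genes. Lengths, overlaps and coordinates are from the Ensembl annotation of BDGP6.54, which held 17599 of the 17737 counted genes.

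Genes named in the text are the stalk, ubiquitin fusion and 5S particle genes, the assembly factors, pairs of copies, RpS6, RpL32, RpL41, RpL3 and sta, every called gene, the 3 highest and 3 lowest fold changes, and the elongation factors with Rack1, and other genes named were chosen with their values in view. The values of 1 gene are not reported here. The members and lists were chosen with earlier results of these data known.

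Libraries with the same replicate number deviated from their diet's mean together across genes, with correlations of 0.188, 0.247 and 0.476, against -0.309 to 0.115 for other pairs. On the counts alone, the numbers were therefore treated as pairing the libraries in the fits with the replicate block. No label says what a number shares. The main test had diet alone in its model and did not use the pairing. Its standard errors and adjusted p values are those given wherever the block is not named. Over the 92 genes the same correlations were 0.065, 0.212 and 0.354, against -0.66 to 0.509.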

Additional observations from a re-analysis of the deposited data

How the results depend on the processing

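The number of ribosomal protein genes called lower was 1 in the test reported and depended on the model. It was 17 with DESeq2, 11 with the replicate block, 14 with the block after removal of a trend on exonic length, and 43 at an unadjusted p under 0.05. Among all tested genes 420 were lower in the test reported, and 824, 872, 910 and 1324 in these alternatives, in this order. With each library left out in turn, 0 to 2 ribosomal protein genes were called lower and 0 to 1 higher. Those fits called 65 to 293 of all tested genes lower and 48 to 224 higher. Other scalings, filters, the likelihood ratio test and the length trend alone kept RpL23 and RpL38 as the only calls. The median log2 fold change of the 92 genes stayed between -0.24 and -0.13, and the difference in their share of counts between -0.878 and -0.435 percentage points, under every alternative run. Over the named genes, 705 of the alternative values kept direction and call, 15 gained a call, 8 lost one, all of RpL23 and RpL38, and 9 changed sign, all in uncalled second copies or assembly factors. The cause of the difference between the tests was not tested. Depth was thinnest in the second copies, where RpS28a had about 1 CPM and the standard errors were larger than in core genes.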

Other observations

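The place of the genes on the chromosomes was looked at after the fold changes were seen, with bounds chosen then, and no test was made of it. RpL38 lies near the centromere end of arm 2R, and 6 core genes lie near such an end or on chromosome 4, namely RpL5, RpL10, RpL15, RpL21, RpL38 and RpS3A. The bounds were above 22 Mb on 2L, below 5 Mb on 2R, above 23 Mb on 3L, below 4 Mb on 3R and above 22 Mb on X. The median log2 fold change was -0.053 for these 6 core genes and -0.20 for the other 73. RpL38, RpL10, RpL15 and RpS3A held the 4 highest values of all core genes. RpL5 (-0.12) and RpL21 (-0.14) were at places 9 and 21 from the highest, among core genes that lie elsewhere. Apart from ribosomal protein genes, 277 tested genes lay within these bounds or on chromosome 4, where the median log2 fold change was 0.25. Of these, 80 (28.9%) were called higher and 1 lower. Elsewhere, 12908 genes had a median of 0.006, and 1.42% were called higher. Near the end of 2R, where RpL38 lies, 21 of 40 genes (52.5%) were called higher.

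On chromosome 4, where RpS3A lies, 36 of 95 other genes (37.9%) were called higher by edgeR and 53 by DESeq2. Their median was 0.34. In the fits that omitted a library it ranged from 0.29 to 0.37, with 6 to 19 genes called higher. In the same fits the medians of all 277 genes ranged from 0.24 to 0.27, with 18 to 54 called higher. Over all tested genes those fits called 48 to 224 higher, and DESeq2 with all libraries called 4.52% higher. The part of place in the values of the ribosomal protein genes was not tested.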
